A study of Mus musculus with 6 samples.

Results

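Cathepsins and other lysosomal genes were examined in cortical thymic epithelial cells (cTEC), as 43 genes chosen by name. They are 12 cathepsins and 31 other lysosomal hydrolases, membrane proteins, proton pump subunits and regulators, out of 39179 genes in the table, and all 43 had a row. The cells came from untreated *Cxcl12*DsRed mice on a C57BL/6 background at 10 weeks of age, in which a knock-in makes cells that use the chemokine gene *Cxcl12* fluoresce red. CD45- EpCAM1+ UEA1- Ly51+ cells, the usual gate for cTEC, were sorted into Cxcl12DsRed- cTEC and Cxcl12DsRed+ cTEC, and 3 experiments, labelled A, B and C, each yielded a library per subset, 6 in all. Every library carries the reporter allele, the split rests on fluorescence alone, and no source used here states how many mice stand behind a library. The comparison asks how the lysosomal transcripts of cTEC without the *Cxcl12* reporter differ from those of cTEC with it.

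Lysosomes are acidic organelles in which hydrolases break down proteins, glycans and lipids that arrive by endocytosis or autophagy. The proton pump acidifies them, the LAMP proteins line their membrane, and TFEB switches on many of their genes. In cTEC these proteases also make the peptides that MHC class II shows to developing CD4+ T cells, and they cut the invariant chain that blocks the peptide groove. In mice that last cut is made mainly by cathepsin L in cTEC and by cathepsin S in B cells and dendritic cells.

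Levels are CPM, counts divided by the library size after TMM scaling, and each fold change is Cxcl12DsRed- relative to Cxcl12DsRed+ cTEC. The libraries held between 34574900 and 51042679 counts in genes. The targeted gene followed the sort, since *Cxcl12* stood at 144, 203 and 287 CPM in Cxcl12DsRed- libraries of A, B and C and at 892, 1214 and 1472 CPM in the Cxcl12DsRed+ libraries. The Cxcl12DsRed- library of C held less of the tuft cell and secretory epithelial transcripts than the other two of its subset, and the Cxcl12DsRed+ library of C held the most endothelial transcripts, so estimates that move most without these 2 libraries are also given without them. The study describes the libraries of a subset both as biological and as technical repeats. The p-values refer to the scatter of these 6 libraries, and some of it may be technical.

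Of the 43 genes, 42 had enough counts to be tested, all but *Lamp3*, and 1 of the 42 passed an adjusted p of 0.05 in edgeR's quasi-likelihood test (2.38%, beside 0.623% of all 15576 tested genes). That gene was *Ctsh*. The likelihood ratio test of edgeR, which called more genes, also picked *Ctsc*, *Ctss* and *Ctsl*, 4 of 42 members (9.52%, beside 5.65% of all tested genes). Unadjusted p-values under 0.05 in the quasi-likelihood test fell on 9 of the 42 (21.4%, beside 11.8%), which were *Ctsc*, *Ctsh*, *Ctsl*, *Ctss*, *Gusb*, *Man2b1*, *Idua*, *Lipa* and *Lamp2*. Libraries of the subsets did not overlap, with Cxcl12DsRed- cTEC higher, for 8 members (19%, beside 9.69%) and, with Cxcl12DsRed- cTEC lower, for 3 members (7.14%, beside 9.42%). Most members lay close to no difference. Estimates on the log2 scale were within 0.5 of 0 for 28 of 42 (66.7%, beside 52.5% of all tested genes), and the median log2 fold change was 0.11 over the members and 0.02 over all tested genes. The cathepsins spread wider than the rest, with a median size of the log2 fold change of 0.67 over the 12 cathepsins and 0.27 over the other 30 tested members, where all tested genes gave 0.46.

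**Figure D1:**
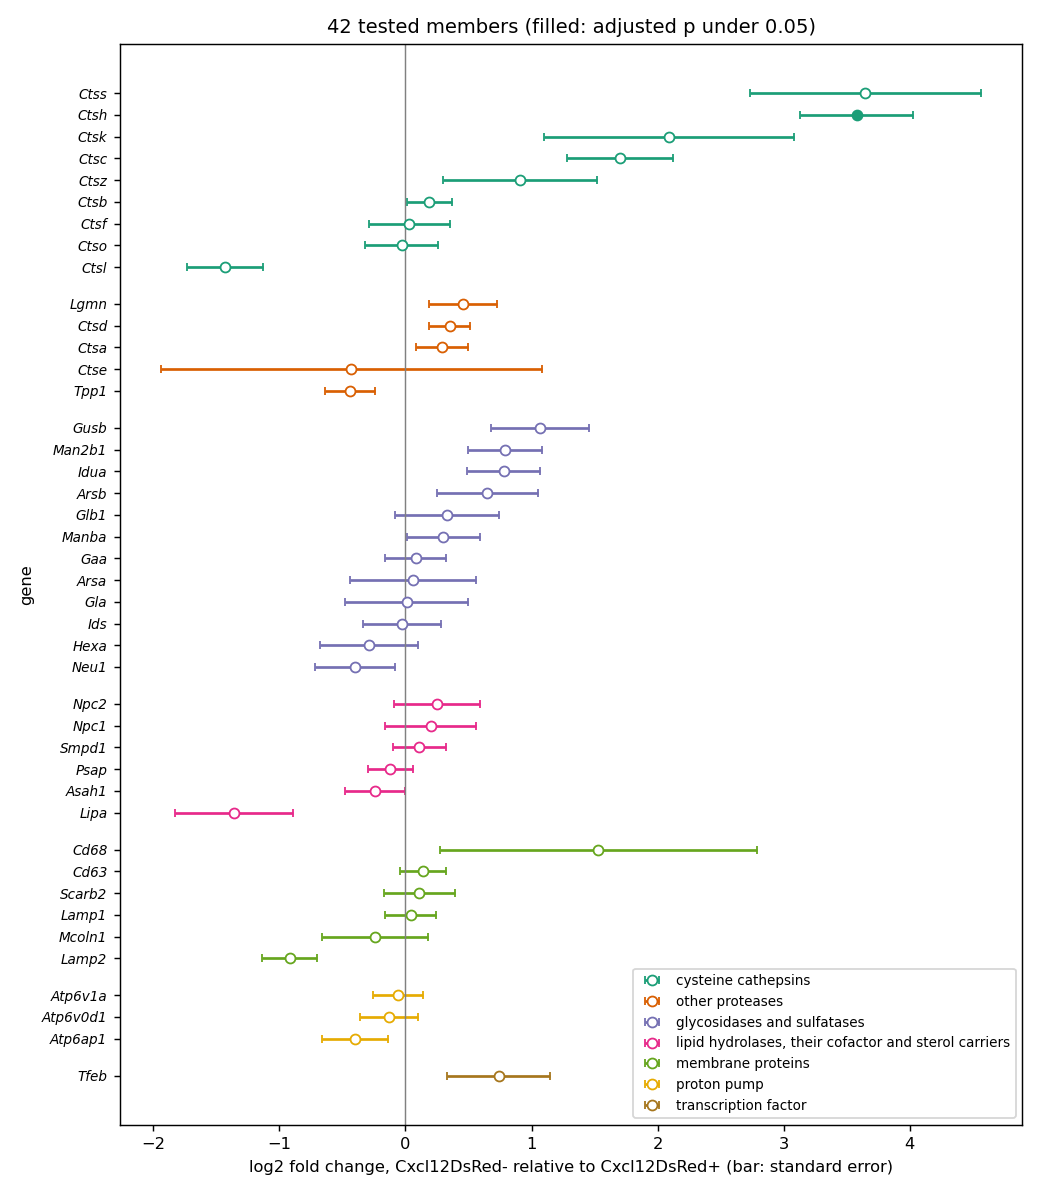
Log2 fold change of the 42 tested members, Cxcl12DsRed- relative to Cxcl12DsRed+ cTEC, by role, with bars for the standard error and a filled point for an adjusted p under 0.05. *Ctsh* is the single filled point, *Ctss* at 3.65 and *Ctsl* at −1.43 are the highest and the lowest estimates, and 28 of the 42 lie within 0.5 of 0.

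The clearest difference was in *Ctsh* (chr9:90054152-90076089 in mm10, plus strand), which encodes cathepsin H, a cysteine protease that trims residues from the amino end of proteins. It stood at 319, 297 and 115 CPM in the Cxcl12DsRed- libraries of A, B and C and at 21.1, 25.1 and 15.0 CPM in the Cxcl12DsRed+ libraries. The lowest Cxcl12DsRed- library was several-fold above the highest Cxcl12DsRed+ library, and the ratio within experiments was 15.1 in A, 11.8 in B and 7.66 in C. *Ctsh* rose by 3.58 on the log2 scale (standard error 0.45), a ratio of 11.96, with an adjusted p of 0.0391 in edgeR's quasi-likelihood test. With the experiment as a block in that edgeR test the adjusted p was 0.0345, and over all alternatives it ranged from 6.26e-18 to 0.393. The call was lost in limma with voom (adjusted p = 0.141). It was kept without the Cxcl12DsRed- library of C (edgeR, adjusted p = 0.0181) and lost without any other single library, where the edgeR adjusted p was 0.129 and 0.1004 without the Cxcl12DsRed- library of A or B and 0.145, 0.157 and 0.105 without the Cxcl12DsRed+ library of A, B or C. In those fits without a call of *Ctsh*, no more than 1 of all tested genes passed. The estimate of *Ctsh* itself stayed between 3.30 and 3.91.

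*Ctss* (chr3:95526786-95556403, plus strand) encodes cathepsin S, the protease that finishes the invariant chain in B cells and dendritic cells. Its 250 bases before the RefSeq start (GRCm38.p6, chr3:95526536-95526785, plus strand) are shown because they hold, in capitals, a match to GAAANNGAAA, the core read by interferon regulatory factors, 21 bases before the start. The match was noticed on reading the sequence. On either strand this motif stood in 3.99% of the 27025 genes with a promoter window of 250 bases before to 50 after the start, and in 4 of the 38 members with one, the others being *Ctso*, *Lamp1* and *Lamp3*.
*Ctss*: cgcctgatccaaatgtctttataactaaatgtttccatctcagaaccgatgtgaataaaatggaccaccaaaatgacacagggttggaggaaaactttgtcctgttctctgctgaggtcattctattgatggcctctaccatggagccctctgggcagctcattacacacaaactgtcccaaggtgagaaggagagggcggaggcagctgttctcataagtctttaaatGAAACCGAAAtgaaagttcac
*Ctss* stood at 113, 176 and 14.2 CPM in the Cxcl12DsRed- libraries of A, B and C and at 6.51, 13.3 and 4.38 CPM in the Cxcl12DsRed+ libraries. The subsets did not overlap, but the Cxcl12DsRed- library of C was barely above the Cxcl12DsRed+ library of B. The log2 fold change was 3.65 with a standard error of 0.92, and the adjusted p was 0.143 in edgeR's quasi-likelihood test and 0.00200 in its likelihood ratio test (range over the alternatives 2.04e-05 to 0.607). Without the Cxcl12DsRed- library of C the quasi-likelihood test of edgeR gave a log2 fold change of 4.17 and an adjusted p of 0.0456. Without the Cxcl12DsRed- library of B the same test gave 2.98 and an adjusted p of 0.289, and no other library or experiment left out brought a call, with estimates up to 4.20.

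*Ctsc* (chr7:88278085-88310888, plus strand) encodes cathepsin C, a dipeptidyl peptidase that activates granule serine proteases. Its Cxcl12DsRed- libraries held 192, 116 and 68.6 CPM and its Cxcl12DsRed+ libraries 44.3, 45.6 and 26.3 CPM, without overlap. The log2 fold change of *Ctsc* was 1.70 (standard error 0.42), with an adjusted p of 0.139 in the quasi-likelihood test and 0.00883 in the likelihood ratio test of edgeR (range over the alternatives 0.000185 to 0.501). *Ctsk*, the gene of the collagen-degrading cathepsin K, also had the higher value in the Cxcl12DsRed- library of each experiment, at 11.8, 43.4 and 26.4 CPM against 0.812, 4.93 and 13.5 CPM. Its subsets overlapped, because the Cxcl12DsRed+ library of C exceeded the Cxcl12DsRed- library of A. The log2 fold change of *Ctsk* was 2.09 with a standard error of 0.99 (edgeR quasi-likelihood, adjusted p = 0.499, range over the alternatives 0.0239 to 0.956). Without the Cxcl12DsRed+ library of C the *Ctsk* estimate was 3.20, and over all libraries or experiments left out it ran from 1.45, without experiment B, to 3.24, without experiment C.

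*Ctsl* (chr13:64359337-64370890, minus strand) encodes cathepsin L, the protease that finishes the invariant chain in cTEC, and it went the other way. It stood at 1812, 1814 and 1976 CPM in the Cxcl12DsRed- libraries of A, B and C and at 5046, 6952 and 3125 CPM in the Cxcl12DsRed+ libraries. All Cxcl12DsRed- libraries lay below all Cxcl12DsRed+ libraries, and they were close to each other (1868 ± 94.1 CPM, SD, n = 3) where the Cxcl12DsRed+ libraries were spread (5041 ± 1913 CPM, n = 3). The log2 fold change was −1.43 (standard error 0.30), a level 2.69-fold higher in Cxcl12DsRed+ cTEC. The adjusted p of *Ctsl* was 0.0956 in the quasi-likelihood test and 0.00338 in the likelihood ratio test of edgeR (range over the alternatives 0.000899 to 0.475). The estimate stayed between −1.75 and −1.10 when single libraries or experiments were left out. Even so *Ctsl* remained among the most abundant members in both subsets. By counts per kilobase of exon it ranked 3 of 43 in Cxcl12DsRed- cTEC and 1 of 43 in Cxcl12DsRed+ cTEC. By the length of the APPRIS principal transcript, the longest where several share the best annotated level, *Ctsl* ranked 4 and 1. For *Ctsl* these lengths, 6489 and 6168 bases, are close, so the second is a weak check of the first.

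**Figure D2:**
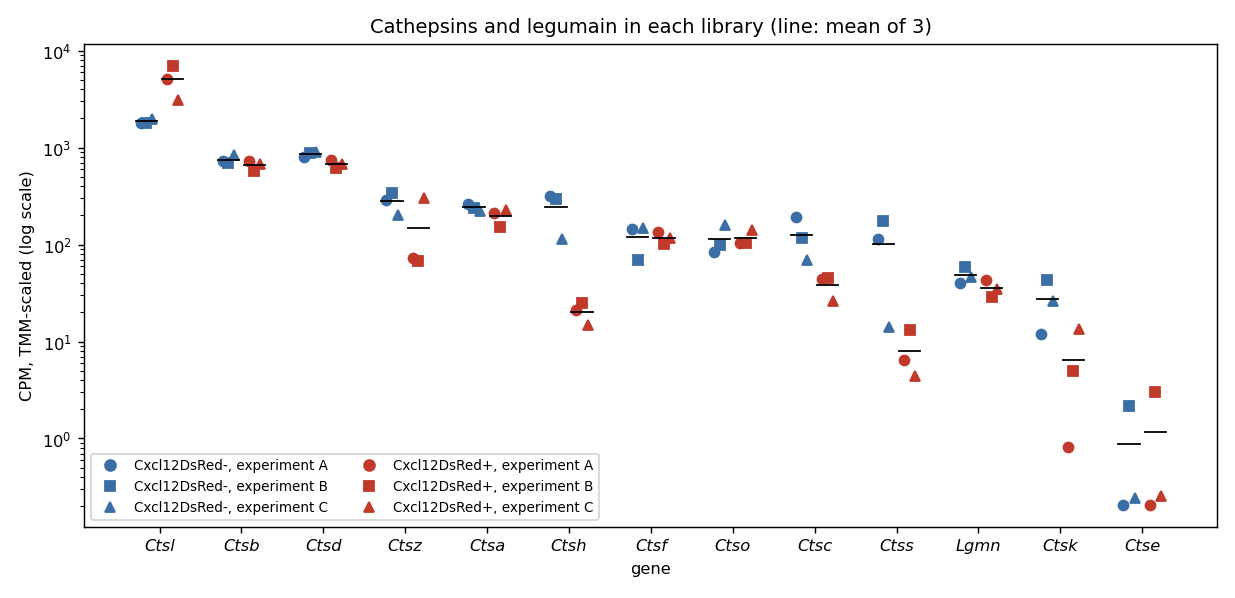
CPM of the 12 cathepsins and legumain in each of the 6 libraries, on a log axis, with Cxcl12DsRed- libraries in blue, Cxcl12DsRed+ libraries in red, a symbol for each experiment and a line at each mean. *Ctsl* is lower and *Ctsh*, *Ctsc* and *Ctss* are higher in every blue library than in every red one, while *Ctsb*, *Ctsf* and *Ctso* lie at like levels.

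The make-up of the cathepsin transcripts was also compared within each library, which does not depend on how libraries are scaled against each other. By counts per kilobase of exon, *Ctsl* made up 22.6%, 21.0% and 26.7% of the summed level of the 12 cathepsins in the Cxcl12DsRed- libraries of A, B and C. In the Cxcl12DsRed+ libraries it made up 56.5%, 68.1% and 39.8%. The means were 23.4 ± 2.93% (SD, n = 3) and 54.8 ± 14.2% (n = 3), without overlap. Over all libraries the two-sided exact permutation test gave p = 0.1 and within the 3 pairs p = 0.25, in both cases the lowest value this design can reach. With the length of the APPRIS principal transcript in place of all exons, a choice made after the data were seen, the means were 20.1 ± 2.78% and 51.1 ± 13.7%. *Ctsh* made up 4.30 ± 1.83% of the summed level in Cxcl12DsRed- cTEC and 0.323 ± 0.0430% in Cxcl12DsRed+ cTEC. *Ctss* made up 6.72%, 9.74% and 0.915% in the Cxcl12DsRed- libraries and 0.348%, 0.620% and 0.266% in the Cxcl12DsRed+ libraries. The ratio of the cathepsins that finish the invariant chain, *Ctsl* over *Ctss* per length, was 3.36, 2.15 and 29.1 in the Cxcl12DsRed- libraries of A, B and C and 162, 110 and 149 in the Cxcl12DsRed+ libraries. The C library of Cxcl12DsRed- cTEC lay between the others.

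**Figure D3:**
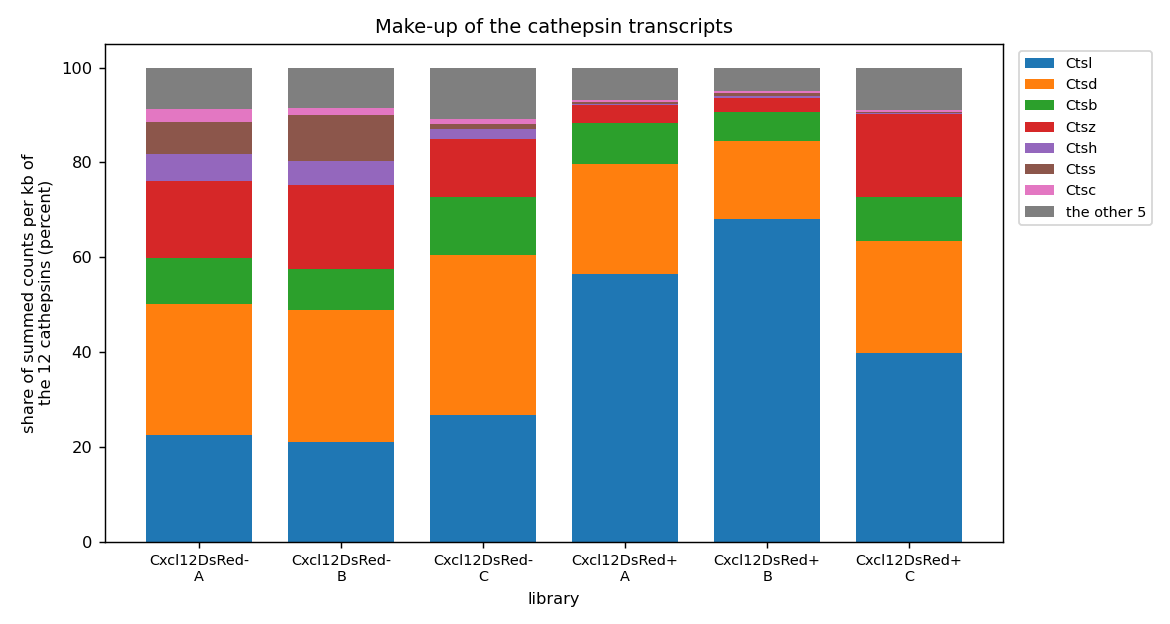
Share of each cathepsin in the summed counts per kilobase of exon of the 12 cathepsins, in percent, 1 bar a library. *Ctsl* takes 21.0% to 26.7% in the 3 Cxcl12DsRed- bars and 39.8% to 68.1% in the 3 Cxcl12DsRed+ bars, and the bands of *Ctsh*, *Ctss* and *Ctsc* are seen mainly in the Cxcl12DsRed- bars.

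The other cysteine cathepsins did not pass the test. *Ctsb*, the gene of the broadly expressed cathepsin B, stood at 727, 693 and 839 CPM in Cxcl12DsRed- cTEC and at 730, 575 and 682 CPM in Cxcl12DsRed+ cTEC. Its subsets overlapped (edgeR quasi-likelihood, log2 fold change 0.19, standard error 0.18, adjusted p = 0.798). *Ctsf* and *Ctso*, for cathepsins F and O, gave log2 fold changes of 0.03 and −0.03. *Ctsz*, for cathepsin Z, a carboxypeptidase, showed 289, 343 and 203 CPM in the Cxcl12DsRed- libraries and 72.7, 67.1 and 305 CPM in the Cxcl12DsRed+ libraries, so that the C library of Cxcl12DsRed+ cTEC stood with the other subset. The log2 fold change of *Ctsz* was 0.91 (standard error 0.61, edgeR quasi-likelihood, adjusted p = 0.670) and, without that library, 1.95 (edgeR, adjusted p = 0.0939). Over all libraries or experiments left out, the *Ctsz* estimate ran from 0.40, without experiment B, to 2.15, without experiment C. *Ctsz* is described in full after its values were seen.

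The proteases beside the cysteine cathepsins differed little. *Ctsd*, for the aspartic protease cathepsin D, stood at 804, 876 and 910 CPM in Cxcl12DsRed- cTEC and at 749, 612 and 671 CPM in Cxcl12DsRed+ cTEC. Its libraries did not overlap, but the difference was small (edgeR quasi-likelihood, log2 fold change 0.35, standard error 0.16, adjusted p = 0.489). *Lgmn*, for legumain, a lysosomal protease that cuts after asparagine, showed 40.5, 58.2 and 46.6 CPM against 42.8, 28.8 and 34.5 CPM, with overlap. Its log2 fold change was 0.46 (standard error 0.27, edgeR quasi-likelihood, adjusted p = 0.615). *Ctse*, for cathepsin E, an endosomal aspartic protease, was at 0.207 to 0.257 CPM in the libraries of A and C and at 2.15 and 3.04 CPM in the Cxcl12DsRed- and Cxcl12DsRed+ libraries of B. Its level thus moved with experiment B and not with the subset (edgeR quasi-likelihood, log2 fold change −0.43, standard error 1.51, adjusted p = 0.965), and the sign turns when a library is left out. *Ctsa*, for the protective protein of galactosidase and neuraminidase, and *Tpp1*, a tripeptidyl peptidase gene, gave log2 fold changes of 0.29 and −0.44. *Tpp1* was the member beside *Ctsl* and *Lamp2* whose Cxcl12DsRed- libraries, at 114 to 141 CPM, all lay below the Cxcl12DsRed+ libraries, at 149 to 205 CPM.

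None of the 12 glycosidase and sulfatase genes passed in the quasi-likelihood test of edgeR, and 3 had an unadjusted p under 0.05, each with higher values in Cxcl12DsRed- cTEC and no overlap. *Gusb*, for the glucuronidase of glycosaminoglycan breakdown, stood at 195, 123 and 94.53 CPM against 61.5, 41.1 and 94.50 CPM. The subsets of *Gusb* touched at the libraries of C, which were almost equal (edgeR quasi-likelihood, log2 fold change 1.07, standard error 0.39, adjusted p = 0.339). *Man2b1*, for the acid mannosidase, showed 174, 96.8 and 108 CPM against 78.7, 58.9 and 82.4 CPM (edgeR quasi-likelihood, log2 fold change 0.79, standard error 0.29, adjusted p = 0.333). *Idua*, for the iduronidase of heparan and dermatan sulfate breakdown, showed 59.1, 68.2 and 43.3 CPM against 41.9, 27.8 and 30.1 CPM (edgeR quasi-likelihood, log2 fold change 0.78, standard error 0.29, adjusted p = 0.347). The other 9 genes, *Gaa*, *Gla*, *Glb1*, *Hexa*, *Neu1*, *Manba*, *Arsa*, *Arsb* and *Ids*, had log2 fold changes from −0.40 to 0.65. *Arsa*, at 0.06 over all libraries, gave 0.83 without the Cxcl12DsRed+ library of C. *Gaa*, for the glucosidase that degrades glycogen, was the most abundant of the 12 genes by length, at 411 ± 48.0 CPM (SD, n = 3) in Cxcl12DsRed- cTEC and 389 ± 110 CPM (n = 3) in Cxcl12DsRed+ cTEC.

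Among the lipid hydrolases and sterol carriers none of 6 passed in the same test, and *Lipa* had an unadjusted p under 0.05. *Lipa*, for the acid lipase that frees cholesterol from its esters, stood at 19.3, 37.8 and 25.1 CPM in the Cxcl12DsRed- libraries and at 35.1, 65.7 and 111 CPM in the Cxcl12DsRed+ libraries. Each experiment had the lower value in Cxcl12DsRed- cTEC, with overlap between subsets (edgeR quasi-likelihood, log2 fold change −1.36, standard error 0.47, adjusted p = 0.305). Without the Cxcl12DsRed+ library of C, the highest, the log2 fold change of *Lipa* was −0.92. *Psap*, for the precursor of the saposins that present lipids to hydrolases, was at 1309 ± 104 CPM and 1429 ± 198 CPM and ranked 1 and 2 of 43 by exon length in the Cxcl12DsRed- and Cxcl12DsRed+ subsets, and 2 in both by principal transcript. *Asah1*, *Smpd1*, *Npc1* and *Npc2*, for ceramide and sphingomyelin breakdown and cholesterol export, had log2 fold changes from −0.24 to 0.25.

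Among the membrane proteins *Lamp2* stood out. It encodes a major glycoprotein of the lysosomal membrane, of which 1 splice form serves chaperone-mediated autophagy, and these counts do not separate the splice forms. *Lamp2* (chrX:38401357-38456454, minus strand) stood at 540, 549 and 725 CPM in the Cxcl12DsRed- libraries and at 1319, 1227 and 893 CPM in the Cxcl12DsRed+ libraries, without overlap. Its log2 fold change was −0.92 (standard error 0.22), with an adjusted p of 0.130 in edgeR's quasi-likelihood test and 0.00837 in DESeq2 (range over the alternatives 0.00837 to 0.668). Its relative *Lamp1* showed 183, 157 and 131 CPM against 139, 172 and 148 CPM, with overlap. The log2 fold change of *Lamp1* was 0.04 (standard error 0.20, edgeR quasi-likelihood, adjusted p = 0.976), and its sign turns to −0.01 with library totals only. *Cd63*, a tetraspanin gene, *Scarb2*, a carrier gene, and *Mcoln1*, for a calcium channel, gave 0.14, 0.11 and −0.24. Without the Cxcl12DsRed- library of C the estimate of *Mcoln1* was −0.74. *Cd68*, best known from macrophages, was low at 8.16, 17.2 and 1.74 CPM in Cxcl12DsRed- cTEC and at 1.78, 7.24 and 0.3604 CPM in Cxcl12DsRed+ cTEC (log2 fold change 1.53, standard error 1.26, and 0.66 to 3.05 with libraries left out). *Lamp3*, a marker of mature dendritic cells, had 4, 0 and 2 counts in the Cxcl12DsRed- libraries and 1, 1 and 0 in the Cxcl12DsRed+ libraries, where a library at 0 allows up to 3 counts, so no difference was detectable at this depth.

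None of the 3 proton pump subunits passed in the quasi-likelihood test of edgeR or had an unadjusted p under 0.05. *Atp6v0d1* and *Atp6v1a*, of the membrane and the ATP-splitting part, gave log2 fold changes of −0.13 and −0.06, and *Atp6ap1*, an accessory subunit, −0.40. *Tfeb*, the transcription factor of the lysosomal gene programme, was at 18.9, 25.4 and 17.1 CPM in Cxcl12DsRed- cTEC and at 12.6, 8.89 and 15.5 CPM in Cxcl12DsRed+ cTEC. Its subsets did not overlap, while the libraries of C were close (edgeR quasi-likelihood, log2 fold change 0.74, standard error 0.41, adjusted p = 0.580). As a whole the members took 1.03 ± 0.0497% (SD, n = 3) of the counts in genes in Cxcl12DsRed- cTEC and 1.35 ± 0.212% (n = 3) in Cxcl12DsRed+ cTEC. *Ctsl* alone took 0.184 ± 0.0173% and 0.513 ± 0.195%, and without it the remaining 42 members took 0.845 ± 0.0362% and 0.837 ± 0.0717%.

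Markers of some other cell types also differed between the subsets. In bulk RNA fewer cells of a type and less RNA per cell cannot be told apart. The tuft cell list had 20 of 20 genes with higher fitted levels in Cxcl12DsRed- cTEC, and its summed level was 4423, 1246 and 773 CPM in the Cxcl12DsRed- libraries of A, B and C and 77.6 to 161 CPM in the Cxcl12DsRed+ libraries. The list of secretory and other mimetic epithelium had 12 of 12 tested genes higher, and summed to 8129, 4880 and 2224 CPM against 96.4 to 191 CPM. Both sums follow the order of *Ctsh* and *Ctsc* over the Cxcl12DsRed- libraries, while *Ctss* was highest in B. Such orders rest on 3 values each, and single genes need not follow the sum of their list. In the tuft list *Gfi1b*, at 11.4, 18.9 and 4.94 CPM in A, B and C, had the order of *Ctss*. The other genes of the tuft list were highest in A. Of the tested genes of the myeloid list *Lyz2*, *Laptm5*, *Mpeg1*, *Fcer1g* and *Aif1* had the order of *Ctss*. The rest of them, *Itgam* included, did not. The myeloid list was higher for 9 of its 14 tested genes and lower for 5, and summed to 697, 1162 and 183 CPM against 62.6 to 164 CPM, which over the Cxcl12DsRed- libraries is the order of *Ctss*. Its sum was mostly *Lyz2*, for lysozyme, at 460, 800 and 128 CPM against 19.1 to 80.8 CPM, and *Laptm5*, for a leukocyte lysosomal protein, at 120, 277 and 32.1 CPM against 9.24 to 44.3 CPM. Of its 20 genes 8 averaged under 1 CPM in Cxcl12DsRed- cTEC. *Itgam*, an integrin gene of myeloid cells, and *Lyz2* were the 2 genes of the list without overlap, and *Itgam* stood at 46.1, 15.6 and 6.43 CPM in the Cxcl12DsRed- libraries of A, B and C and at 0.510, 3.06 and 0.386 CPM in the Cxcl12DsRed+ libraries. *Csf1r*, the receptor of macrophage growth factor, stood at 0.161 CPM in the Cxcl12DsRed- library of A, at 16.1 CPM in that of B and at 0.319 CPM in that of C. *Fcgr1*, an Fc receptor gene, was at no more than 0.0303 CPM in every library. The 5 tested genes of the myeloid list with lower fits were *C1qb*, *C1qc*, *Tyrobp*, *Spi1* and *Flt3*. Their log2 fold changes ran from −2.38 for *C1qc* to −0.56 for *Flt3*. The endothelial list summed to 59.5 to 138 CPM in Cxcl12DsRed- cTEC and to 815, 828 and 6148 CPM in the Cxcl12DsRed+ libraries of A, B and C. *Ctsz* and *Lipa* had their highest Cxcl12DsRed+ values in that library of C. So did other members, *Ctsa*, *Tpp1* and *Arsa* among them, so this is not particular to *Ctsz* and *Lipa*. The cTEC list was lower in Cxcl12DsRed- cTEC for 12 of its 16 genes, and summed to 5366 to 8919 CPM against 11090 to 19720 CPM. The fibroblast list summed to 4304 to 5975 CPM against 1562 to 2244 CPM, and had higher fits for 11 of its 12 genes. Its largest gene was *Dcn*. The mTEC list summed to 7070 to 10570 CPM against 3186 to 13360 CPM, mostly from *Ccl21a*, *Krt5* and *Krt14*. Fits of the mTEC list were higher for 6 of its 9 genes and lower for 3. The thymocyte list summed to 60.1 to 121 CPM against 45.1 to 371 CPM. The B cell list summed to 6.90 to 36.9 CPM against 0.718 to 5.04 CPM. The part of these cell types in the cathepsin results was not tested.

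**Figure D4:**
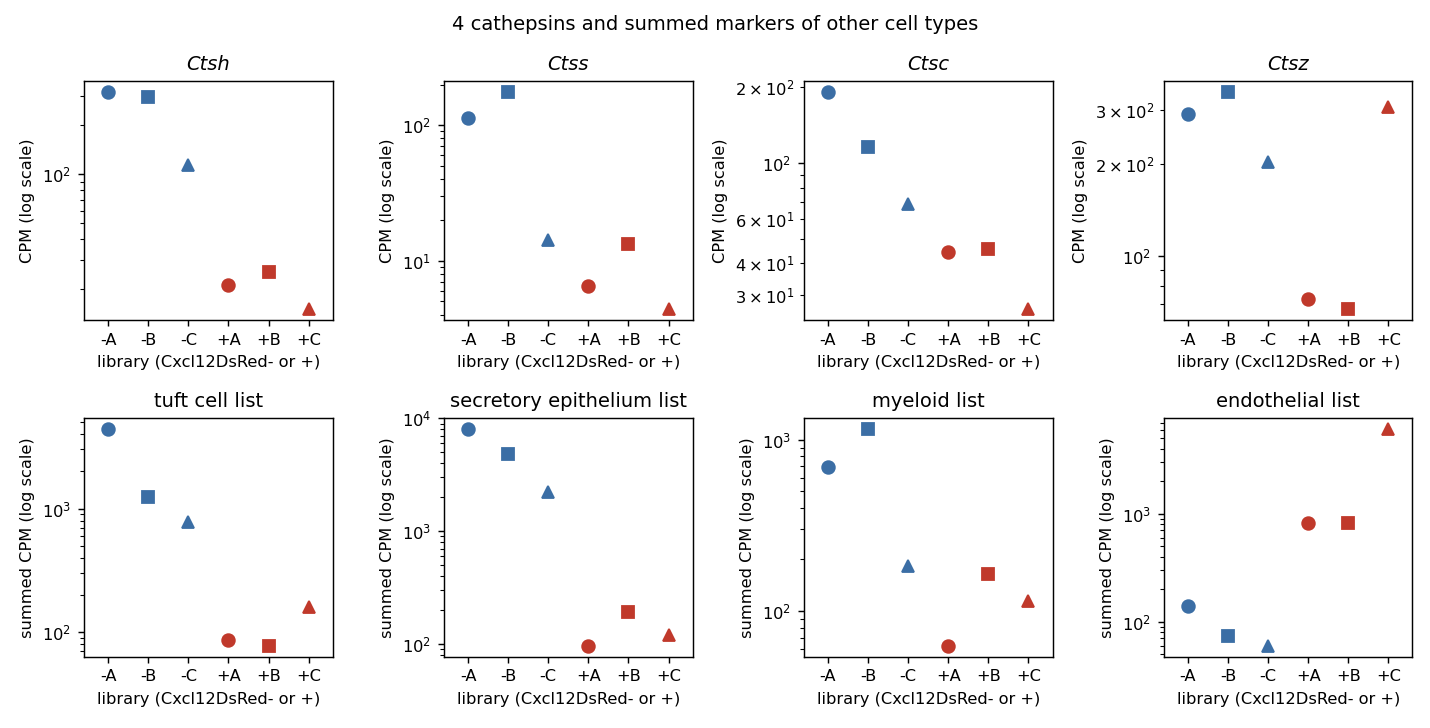
CPM of *Ctsh*, *Ctss*, *Ctsc* and *Ctsz* (top) and summed CPM of 4 marker lists (bottom) in the 6 libraries, on log axes, with Cxcl12DsRed- in blue and Cxcl12DsRed+ in red and a symbol for each experiment. The tuft, secretory and myeloid sums are higher in all 3 blue libraries, with the myeloid sum of blue C barely above that of red B. The endothelial sum is highest, at 6148 CPM, in the red library of C. *Ctsz* also has its highest red value there, as do members not drawn here.

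The wider pathway was read from 144 further lysosomal genes in 7 lists, of which 131 were tested. They split evenly, with 65 estimates above 0 and 66 below, and the median log2 fold change was −0.00. A single gene of the 131 passed in edgeR's quasi-likelihood test. This was *Prss16*, for the thymus-specific serine protease that shapes MHC class II peptides in cTEC, at 74.2, 162 and 153 CPM in Cxcl12DsRed- cTEC and at 2410, 4184 and 2270 CPM in Cxcl12DsRed+ cTEC. *Prss16* fell by 4.51 on the log2 scale, with a standard error of 0.43 and an adjusted p of 0.0319 in that edgeR test. None of the other 11 genes of its list, the MHC class II genes and their helpers, passed in that edgeR test, and none had an unadjusted p under 0.05. *H2-Ob* and *H2-DMb1*, for partners of peptide loading, gave log2 fold changes of 1.74 (standard error 0.87) and 0.40 (standard error 0.26), where *H2-Ob* gave 0.41 without the Cxcl12DsRed- library of B, and the other 9 genes lay between −0.30 and 0.32. *Cd74*, for the invariant chain, picked out after its values were seen as the substrate of cathepsins L and S, stood at 12750, 19140 and 15550 CPM against 17660, 18970 and 12060 CPM. Its log2 fold change was −0.03, with a standard error of 0.26 (edgeR quasi-likelihood, adjusted p = 0.983).

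The endogenous inhibitors of cathepsins had 7 of 15 genes tested and none called in that test, where 2 had an unadjusted p under 0.05. *Cstb*, for the cytosolic cystatin B, stood at 400.5, 729 and 327 CPM in Cxcl12DsRed- cTEC and at 948, 2213 and 1030 CPM in Cxcl12DsRed+ cTEC, without overlap (edgeR quasi-likelihood, log2 fold change −1.52, standard error 0.44, adjusted p = 0.207). *Cst6*, for the secreted cystatin M/E, showed 324, 66.1 and 14.1 CPM against 8.37, 20.5 and 7.75 CPM, with overlap (edgeR quasi-likelihood, log2 fold change 3.47, standard error 1.10, adjusted p = 0.257). The Cxcl12DsRed- library of A carried much of the *Cst6* estimate, which was 1.67 without it. *Cst3*, for cystatin C, gave a log2 fold change of −0.90 (standard error 0.42). Of the further hydrolases and cofactors 0 of 30 passed in the quasi-likelihood test of edgeR and 5 had an unadjusted p under 0.05. The smallest p was that of *Gm2a*, for the activator of ganglioside breakdown, at 186, 324 and 120.5 CPM against 56.2, 37.7 and 65.0 CPM (edgeR quasi-likelihood, log2 fold change 1.99, standard error 0.41, adjusted p = 0.0923). *Scpep1*, a carboxypeptidase gene, and *Fuca1*, the fucosidase gene, followed with log2 fold changes of 0.73 and 0.69. Of the 17 further pump subunits tested 0 passed and 2 had an unadjusted p under 0.05 in edgeR's test. *Atp6v0e2*, a small membrane subunit gene, stood at 23.5, 31.0 and 27.4 CPM against 4.46, 4.58 and 7.62 CPM, without overlap (edgeR quasi-likelihood, log2 fold change 2.30, standard error 0.42, adjusted p = 0.0723). *Atp6v1g1* and *Atp6v1b2*, for subunits of the cytosolic part, gave −0.44 and −0.59.

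In the 3 remaining lists none of the tested genes passed in edgeR's quasi-likelihood test, with an unadjusted p under 0.05 for 0 of 26 membrane proteins and carriers, 3 of 22 genes of enzyme delivery and 2 of 17 genes of lysosomal control. The smallest p-values among carriers were those of *Cd151*, *Ostm1* and *Laptm4a*, with log2 fold changes of −0.90, −0.76 and −0.47. *Gnptg*, a subunit of the enzyme that makes the mannose 6-phosphate tag, and the adaptor genes *Ap1m2* and *Ap3b1* gave 0.63, 0.69 and 0.61. Among the control genes *Rptor* and *Mtor*, of the kinase complex that holds TFEB in the cytosol, gave 1.38 and −0.80, and *Rraga*, for a GTPase that recruits it to the lysosome, gave −0.57.

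**Figure D5:**
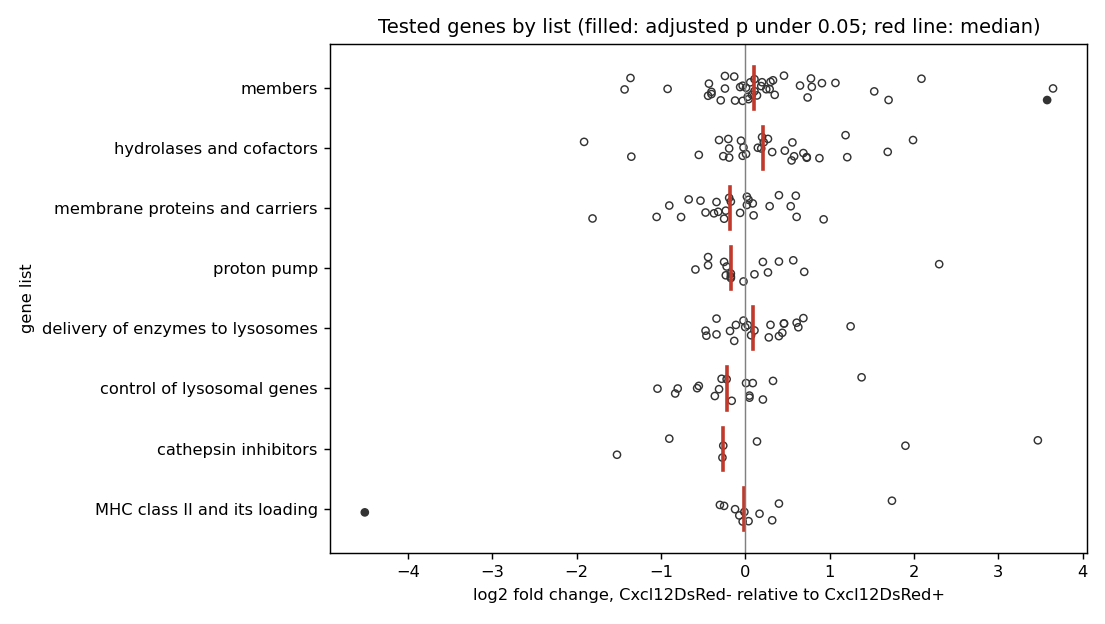
Log2 fold change of the tested genes of the members and of the 7 further lysosomal lists, Cxcl12DsRed- relative to Cxcl12DsRed+ cTEC, 1 point a gene, filled where the adjusted p is under 0.05, with a red line at each median. The medians lie between −0.26 and 0.21, and the filled points are *Ctsh* at 3.58 among the members and *Prss16* at −4.51 in the MHC class II list.

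Promoters of the members were read for the sites by which TFEB is known to bind lysosomal genes. RefSeq windows (GRCm38.p6) were found for 38 of the 43, and *Ctsh*, *Ctsb* and *Ctse* were among those without one. The letters CACGTG, which read the same on both strands, stood in the windows of 13 of the 38 members (34.2%) and of 8.09% of all genes with a window, and the longer TCACGTGA, which contains it, in 6 of 38 (15.8%) and in 1.13%. The first such site of each of these 6 genes is shown, 24 bases each in the direction of the gene, with the motif in capitals. *Ctsa* and *Gla* each hold another in the same window that is not shown.
*Ctsa* (chr2:164833752-164833775, plus strand): gcaaactgTCACGTGAtgcagatg
*Ctsd* (chr7:142387911-142387934, minus strand): cccgcgtcTCACGTGAcccgttga
*Gla* (chrX:134601218-134601241, minus strand): gcgattgaTCACGTGAgcatctac
*Mcoln1* (chr8:3500465-3500488, plus strand): cgccccgcTCACGTGAccgcggcg
*Atp6v0d1* (chr8:105566053-105566076, minus strand): tactgcggTCACGTGAgacgcggt
*Atp6v1a* (chr16:44139376-44139399, minus strand): tttttaaaTCACGTGAtaggctta
The 13 members with CACGTG had log2 fold changes from −1.43 to 0.46 with a median of 0.04, and 12 of them lay within 0.5 of 0, the exception being *Ctsl*. The RefSeq start behind the *Ctsl* window lies upstream of most first exons that GENCODE gives the gene, so that window may not be its main promoter. Of the 24 tested members with a window but without these letters, 12 lay within 0.5 of 0, and those farther from 0 included *Ctss*, *Ctsc* and *Lamp2*. GACGC, the core read by FOXN1, on either strand stood in 11 of 38 members (28.9%) and in 29.6% of all genes with a window, so the members were close to the rest. These matches are letters in a window and were not tested as binding sites.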

How the data were processed

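RNA of 6 libraries was measured by poly(A) sequencing after amplification with the SMARTer Ultra Low Input kit. As the submitters' processing notes and the methods state, the authors used Trimmomatic 0.36 for trimming, STAR 2.7.3a for alignment to mm10 and HTSeq for counting, and the deposited values are unadjusted counts per gene. Strand use and annotation release are not stated, so reads of genes that overlap on either strand are not separated, and amplified reads are not independent molecules. Of 39277 entries, 92 spike-in names, 5 summaries and 1 reporter entered neither library sizes nor tests. Reads in no gene were 5.88% to 9.35% of the counts in genes and ambiguous reads 1.21% to 1.38%. Names, coordinates and exon lengths came from GENCODE M21 for GRCm38, which is mm10.

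Genes were kept by filterByExpr in edgeR 4.0.16 (R 4.3.3) at a minimum count of 10, scaled by TMM and tested with glmQLFit and glmQLFTest (prior count 0.125) without a block, with Benjamini-Hochberg adjustment over all 15576 genes. The methods name edgeR without the test. The alternatives were a block for the experiment, the likelihood ratio test with and without it, DESeq2 1.42.0, limma 3.58.1 with voom, RLE factors, library totals, a mean of at least 1 CPM, no filter, and leaving out each library or experiment. Libraries of the same experiment, as the labels name it, were taken as pairs in the block fits and in comparisons within experiments. The main test treated them as unpaired. Across genes, deviations from the subset mean correlated within pairs at 0.0106, 0.0778 and 0.0716, and between unpaired libraries at −0.0948 to 0.00374. No libraries were duplicates. Plots were drawn with matplotlib in Python.

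The members, the further lists, the markers and the tests were chosen with earlier results of these data known. Full values are given for members with an unadjusted p under 0.05 and for *Ctsl*, *Ctss*, *Ctsb*, *Ctsd*, *Ctse*, *Ctsk*, *Lgmn*, *Lamp1*, *Lamp2* and *Tfeb*. Of the further lists, called genes and the 3 with the smallest p are named.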

Additional observations from a re-analysis of the deposited data

How the results depend on the processing

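The number of members called was 1 and became 4 in the likelihood ratio test, 5 in that test with the experiment as a block, 5 in DESeq2 and 0 in limma with voom, where 11 members had an unadjusted p under 0.05. With the experiments as a block the quasi-likelihood test again called 1 member, *Ctsh*, and 73 genes in all, against 97 without it, and it changed no call among the members and the further lysosomal genes. Leaving out single libraries or experiments gave 0 to 2 members in edgeR, with 5 to 10 members at an unadjusted p under 0.05. The 2 calls, *Ctsh* and *Ctss*, came without the Cxcl12DsRed- library of C, and *Ctsh* was called without experiment C. Further lysosomal genes called went from 1 to 5 in the likelihood ratio test, 5 with the block and 8 in DESeq2, and ranged from 0 to 1 with libraries left out. All genes called went from 97 to 880 in the likelihood ratio test, 1060 in that test with the block, 1422 in DESeq2, 4 in limma with voom and 168 without a filter, and ranged from 0 to 139 with libraries left out, 139 without the Cxcl12DsRed- library of C. The median log2 fold change of the members ranged from 0.04 to 0.25. The share of *Ctsl* among cathepsins was 31.4 percentage points lower in Cxcl12DsRed- cTEC, with a range from −38.9 to −24.7 over libraries left out. The share of counts taken by the members differed by −0.320 percentage points, by −0.0150 without *Ctsl*, *Ctsd* and *Ctsb*, and by 0.00827, the opposite sign, without *Ctsl*. The log2 fold change of *Lamp1* turned to −0.01 with library totals, −0.00 without a filter and −0.19 to −0.03 in 4 of the fits with libraries left out (range 0.15 at its highest), and that of *Ctse* to 0.01 and 1.87 (range −2.35 to 1.87 with libraries left out) without the Cxcl12DsRed- library of C and the Cxcl12DsRed+ library of B. The cause of these changes was not tested. With 3 libraries a subset, small differences in low genes such as *Ctse*, *Cd68* and *Lamp3* were not detectable at this depth.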
